A study of Mus musculus with 2 samples.

Results

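The T cell receptor signalling genes described here are 32 genes named by symbol: chains of the CD3 complex, co-receptors, kinases, adaptors, effector enzymes, co-stimulatory and surface molecules, and phosphatases and inhibitors. All 32 were found among the 32285 features of the deposited tables. They were read in T cells and natural killer (NK) cells of the mouse spleen. The design holds 1 library of splenocytes from M694I knock-in mice, in which that change was put into Mefv, and 1 of splenocytes from wild-type mice of matched age. The wild-type sample carries the genotype label M694I WT, and no further allele, strain, age or treatment is named for either library. Mefv codes for pyrin, an inflammasome sensor. Transcript 3' ends were captured in droplets and tagged with unique molecular identifiers (UMIs), so that each captured RNA molecule is counted once.

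The T cell receptor has no enzyme of its own. When it binds peptide on an MHC molecule, the kinase Lck, carried by the co-receptors CD4 and CD8, phosphorylates the CD3 and zeta chains, Zap70 docks there and phosphorylates the adaptors Lat and SLP-76, and these gather the enzymes that raise calcium, activate Ras and switch on NFAT and NF-kB. The phosphatase CD45 sets how active Lck is, while Ptpn22 and UBASH3A limit the signal and CD28 and CD2 add to it. NK cells do not use this receptor, but they express the zeta chain, Lck, Fyn and several of the adaptors, which serve their own activating receptors.

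Depth differed: 25193274 UMIs over 9000 barcodes in the knock-in library, against 32797052 over 10449 in the wild-type library. After filtering, 8442 knock-in cells and 9543 wild-type cells remained, with medians of 2027.5 and 2531 UMIs, median mitochondrial shares of 3.99% and 4.68%, and 27 barcode sequences occurring in both libraries. Mefv gave 79 UMIs over all barcodes of the knock-in and 166 of the wild-type library, and no more than 1 in any T cell or NK cell gate, and the counts hold no read sequence that would check the edit. Each genotype has 1 library, so nothing was tested. Intervals are at 95% and cover only the error of counting, ratios compare the libraries and not the genotypes, and all have the knock-in library on top. Levels are in CPM, that is UMIs scaled to a total of 1000000 over the cells of that gate and library.

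T-like and NK-like clusters were found without using the 32 genes, and cells in them were gated on single transcripts. A conventional CD4 cell held a Cd4 UMI and no Cd8a or Cd8b1 UMI. It was called regulatory-like instead if it also held Foxp3 or at least 2 of Ikzf2, Ctla4, Il2ra, Tnfrsf4, Tnfrsf18, Icos and Izumo1r. A CD8 cell held a Cd8a or Cd8b1 UMI and no Cd4 UMI, and was called memory with a Ccl5 UMI and naive without one. Gamma-delta cells held Trdc and a gamma constant gene but no Trac, Cd4 or CD8 UMI, and NK cells lay in the NK-like cluster without Trac. The gates held 69 knock-in and 144 wild-type conventional CD4 cells, 113 and 107 regulatory-like cells, 392 and 321 naive CD8 cells, 243 and 194 memory CD8 cells, 30 and 26 gamma-delta cells and 243 and 375 NK cells. Their median depths were 1943 and 2951.5, 2493 and 3039, 2786.5 and 3367, 4044 and 4442.5, 2485.5 and 2675.5, and 2081 and 2229 UMIs in the same order, so every knock-in gate was the shallower. Because Cd4 and CD8 transcripts are captured in few cells, 54.5% of knock-in and 60.2% of wild-type T-like cells fell in no gate.

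Marker genes of the gates were found in part of their cells. Trac, which took no part in the CD4 and CD8 gates, was found in 71.0% of knock-in and 72.2% of wild-type conventional CD4 cells and in 80.7% and 83.5% of memory CD8 cells. Foxp3, the factor that defines regulatory T cells and was itself part of the gate, was found in only 3.54% of knock-in and 7.48% of wild-type regulatory-like cells, so that gate rests mainly on the other genes. The naive and memory CD8 gates were separated by Ccl5 alone. Ccr7, a homing receptor of naive cells, was found in 78.8% of knock-in and 85.4% of wild-type naive CD8 cells and in 65.8% and 69.1% of memory CD8 cells, and Cd44, which memory cells carry, in 5.36% and 6.23% of naive CD8 and 24.3% and 29.4% of memory CD8 cells.

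Within the gates, more of the genes were higher than lower in knock-in cells in each of the 4 alpha-beta T cell gates when levels were scaled to the gate's total. A gene was taken as measured with a mean of at least 10 CPM and at least 20 UMIs over both libraries, and as higher or lower once its log2 ratio was 0.32 away from 0, a 1.25-fold difference. Cd4, Cd8a and Cd8b1 chose the gates and are left out of these counts. Of 26 genes measured in conventional CD4 cells, 15 were higher and 2 lower, where 34.9% of all 3420 genes were higher and 24.0% lower. The median log2 ratio was 0.37 for these genes and 0.10 for all genes. That split depended on the scaling: with TMM factors, which move every log2 ratio of this gate by -0.25, 5 were higher and 5 lower, and the medians were 0.12 for these genes and -0.15 for all, with 21.5% of all genes higher and 38.5% lower. With a total without ribosomal protein, mitochondrial and antigen receptor genes, which moves the ratios by -0.15, 8 were higher and 5 lower, against 25.7% and 33.0% of all genes.

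Regulatory-like cells had 10 of 25 measured genes higher and 5 lower, against 29.1% and 23.1% of all genes, and medians of 0.19 for these genes and 0.04 for all. In naive CD8 cells 10 of 28 were higher and 2 lower, against 24.0% and 22.3% of all genes, with medians of 0.21 and 0.03. In memory CD8 cells 8 of 27 were higher and 3 lower, against 22.4% and 25.2%, with medians of 0.04 and -0.01. The share of higher genes was thus furthest above that of all genes in conventional CD4 cells, and the share of lower genes was below that of all genes in all 4 gates under this scaling. With cells thinned to 1000 UMIs and gated again, the medians of the genes still measured were 0.29 in conventional CD4, 0.07 in regulatory-like, 0.04 in naive CD8 and 0.19 in memory CD8 cells, against 0.08, 0.09, 0.07 and 0.08 for all genes, so these genes no longer lay above all genes in regulatory-like and naive CD8 cells.

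Gamma-delta and NK cells also had more of these genes higher than lower. Of 14 genes measured in gamma-delta cells 6 were higher and 4 lower, against 30.8% and 31.3% of all genes. The gamma-delta median was 0.21 for these genes and -0.0024 for all. In NK cells 6 of 21 were higher and 4 lower, against 20% and 30.1%, and the median was -0.11 for these genes and -0.06 for all. Summed over all 32 genes, the level was 6877 CPM in knock-in and 5505 CPM in wild-type conventional CD4 cells, 9167 and 7868 CPM in regulatory-like cells, 6816 and 5709 CPM in naive CD8 cells and 6340 and 5779 CPM in memory CD8 cells. The log2 ratios of these sums were 0.32 (0.22 to 0.42), 0.22 (0.15 to 0.29), 0.26 (0.21 to 0.30) and 0.13 (0.08 to 0.19). These sums include the co-receptors that chose the gates, and the TMM shift of -0.25 brings that of conventional CD4 cells below that of memory CD8 cells. Gamma-delta cells, at 5769 and 5388 CPM, and NK cells, at 4129 and 4338 CPM, had ratios of 0.10 (-0.10 to 0.29) and -0.07 (-0.15 to 0.00).

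**Figure D1:**
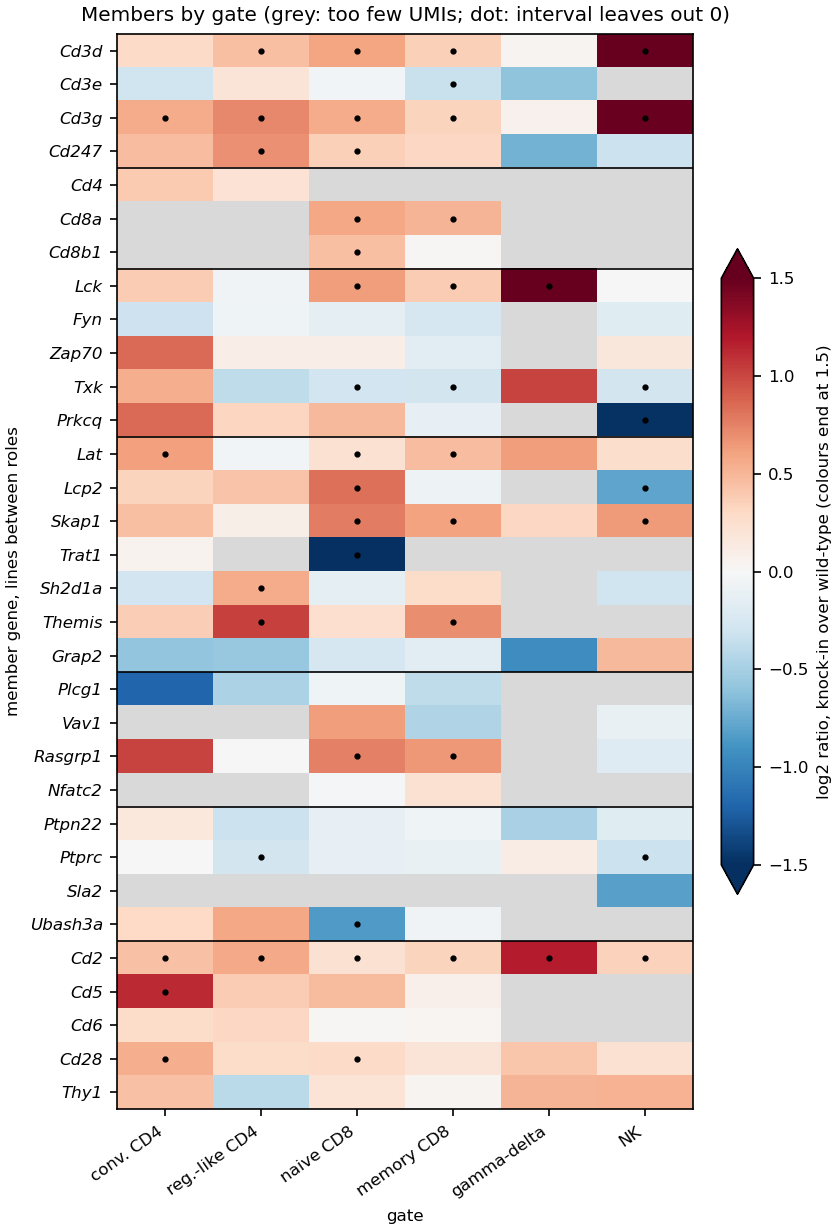
Colours give the log2 ratio of knock-in over wild-type (colour scale, ending at 1.5 in size) for the 32 genes (rows, grouped by role) in the 6 gates (columns). Grey marks genes with too few UMIs and a dot marks a counting interval that leaves out 0. Cd3g and Cd2 carry dots in 5 and 6 gates, while Cd3e is pale or blue in 4 of its 5 measured gates.

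The CD3 chains, which carry the signal of the receptor across the membrane, did not move as one. Cd3g, the gamma chain, had 560 CPM (90 UMIs) in knock-in and 382 CPM (170 UMIs) in wild-type conventional CD4 cells, a log2 ratio of 0.55 (0.17 to 0.93). It had 1369 and 832 CPM in regulatory-like cells (0.72, 0.51 to 0.92), 671 and 455 CPM in naive CD8 cells (0.56, 0.40 to 0.72) and 532 and 421 CPM in memory CD8 cells (0.34, 0.14 to 0.53). The knock-in library was the higher one in all 4, with intervals that left out 0. With TMM factors the conventional CD4 ratio was 0.30, below the fold and with an interval that includes 0. Regulatory-like cells had the highest Cd3g level in both libraries, with an interval that overlapped that of gamma-delta cells in the wild-type library. In gamma-delta cells the libraries lay close together, at 777 and 741 CPM (0.07, -0.48 to 0.62).

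Cd3d, the delta chain, behaved much like Cd3g. It had 1045 CPM in knock-in and 765 CPM in wild-type regulatory-like cells (0.45, 0.23 to 0.67), 854 and 567 CPM in naive CD8 cells (0.59, 0.45 to 0.73) and 817 and 638 CPM in memory CD8 cells (0.36, 0.20 to 0.51). Conventional CD4 cells, at 678 and 555 CPM, had an interval that included 0 (0.29, -0.05 to 0.62). With at least 2 co-receptor UMIs required per cell this last ratio was -0.46, and with TMM factors it was 0.04. Gamma-delta cells had 777 and 754 CPM (0.04, -0.50 to 0.59), a ratio that was -0.13 without cells that held a B cell marker UMI.

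Cd3e, the epsilon chain, showed no such excess. It had 305 CPM in knock-in and 376 CPM in wild-type conventional CD4 cells (-0.30, -0.79 to 0.17), 648 and 567 CPM in regulatory-like cells (0.19, -0.08 to 0.46) and 377 and 388 CPM in naive CD8 cells (-0.04, -0.23 to 0.15). In memory CD8 cells it was lower in the knock-in library, at 298 and 375 CPM (-0.33, -0.56 to -0.10), and in gamma-delta cells it had 382 and 579 CPM (-0.60, -1.32 to 0.10). The intervals of Cd3g and Cd3e did not overlap in regulatory-like, naive CD8 and memory CD8 cells, and those of Cd3d and Cd3e did not overlap in the CD8 gates. Their longest annotated transcripts are 2539 bases for Cd3g, 2550 for Cd3e and 1617 for Cd3d.

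Cd247, which codes for the zeta chain, had 240 CPM (83 UMIs) in knock-in and 149 CPM (61 UMIs) in wild-type regulatory-like cells (0.69, 0.19 to 1.19) and 144 and 112 CPM in naive CD8 cells (0.36, 0.02 to 0.69). Conventional CD4 cells, with 224 and 162 CPM, and memory CD8 cells, with 85.1 and 68.7 CPM, had ratios of 0.47 (-0.15 to 1.07) and 0.31 (-0.18 to 0.81). It lay on the other side in gamma-delta cells, at 98.6 and 162 CPM (-0.71, -2.21 to 0.70), and in NK cells, at 58.0 and 72.5 CPM (-0.32, -0.97 to 0.30). Of the 6 ratios only those of regulatory-like and naive CD8 cells had intervals that left out 0. With cells thinned to a common depth and gated again, the naive CD8 ratio was -0.16.

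**Figure D2:**
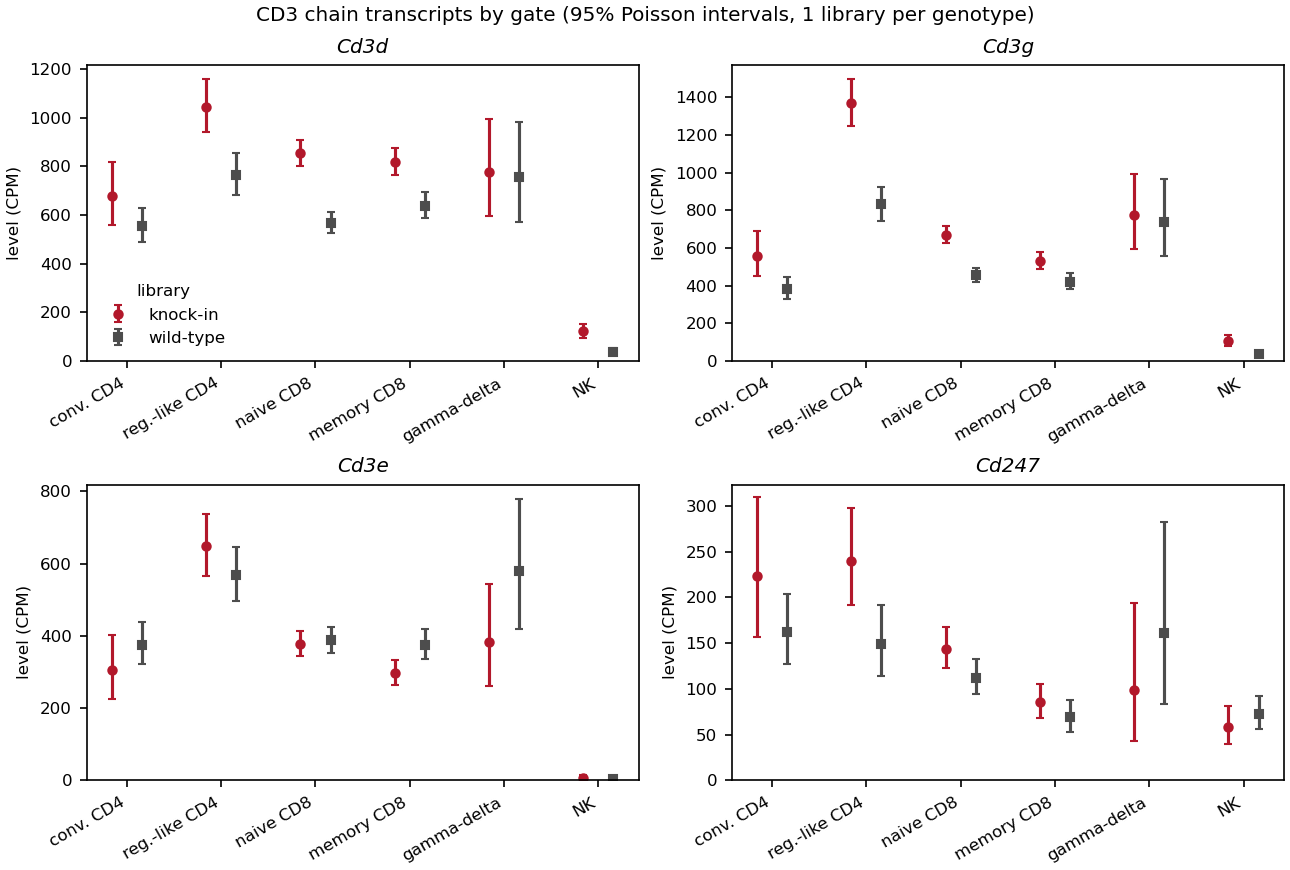
Levels of the 4 CD3 complex genes in CPM (y axis, each panel with its own scale) by gate (x axis), with knock-in as circles left of wild-type squares and bars for the 95% Poisson interval of 1 library each. Cd3d and Cd3g in regulatory-like, naive CD8 and memory CD8 cells have knock-in bars above the wild-type bars, whereas the Cd3e bars overlap in all gates except memory CD8.

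The difference in Cd3g was also visible as a share of cells after each cell had been thinned to 1000 UMIs, which leaves out shallower cells (4 of 69 in the knock-in and 2 of 144 in the wild-type conventional CD4 gate, and no more than 2 in the other 3). A Cd3g UMI was then found in 43.1% of knock-in and 31.0% of wild-type conventional CD4 cells, in 73.0% and 54.2% of regulatory-like cells, in 47.8% and 35.2% of naive CD8 cells and in 40.2% and 35.2% of memory CD8 cells. Without thinning the shares were 59.4% and 65.3%, 89.4% and 77.6%, 81.9% and 73.2%, and 84.8% and 78.4%, so in conventional CD4 cells the order of the libraries was the opposite without thinning. Cd3e thinned shares were 20% and 28.2%, 43.2% and 47.7%, 31.2% and 33.0%, and 25.3% and 34.2% in the same gates, lower in the knock-in library each time. In B-like cells, which should lack these chains, the thinned shares were 0.322% and 0.252% for Cd3g and 0.152% and 0.0787% for Cd3e, at median depths of 1806 and 2338 UMIs before thinning.

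Cd3g, Cd3d and Cd3e lie side by side on mouse chromosome 9. In GRCm38 (mm10), Cd3g (ENSMUSG00000002033) runs from 44969572 to 44980431 on the minus strand, Cd3d (ENSMUSG00000032094) from 44981786 to 44987339 on the plus strand and Cd3e (ENSMUSG00000032093) from 44998740 to 45009627 on the minus strand. Cd3g and Cd3d point away from each other with starts 1355 bases apart, and the start of Cd3e lies 27841 bases from that of Cd3d. Because neighbours with a shared direction of difference stand beside one without it, their promoter windows are printed here. Each runs from 250 bases before to 50 bases after the RefSeq start (GRCm38.p6), 5' to 3' on the gene's own strand. For Cd3e this start differs from the upper end of the span given above, which comes from another annotation. Motif positions are counted from the RefSeq start. Capitals mark matches on either strand to AGGAAG, the core of an ETS factor motif, and to TGTGGT, a RUNX core. The windows are chr9:44980382-44980681 for Cd3g, chr9:44981536-44981835 for Cd3d and chr9:45009562-45009861 for Cd3e.
Cd3g: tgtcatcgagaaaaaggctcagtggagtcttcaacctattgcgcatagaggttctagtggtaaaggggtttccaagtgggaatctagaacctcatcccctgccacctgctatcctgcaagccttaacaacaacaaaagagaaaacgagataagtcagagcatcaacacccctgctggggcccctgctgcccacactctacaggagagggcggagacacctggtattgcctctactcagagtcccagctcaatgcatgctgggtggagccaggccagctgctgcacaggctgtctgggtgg
Cd3d: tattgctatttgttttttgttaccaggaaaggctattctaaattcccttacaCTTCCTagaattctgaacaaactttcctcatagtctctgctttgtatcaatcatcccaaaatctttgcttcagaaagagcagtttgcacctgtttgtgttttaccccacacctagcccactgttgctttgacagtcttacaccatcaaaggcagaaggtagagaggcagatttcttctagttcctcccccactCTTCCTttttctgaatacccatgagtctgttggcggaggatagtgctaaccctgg
Cd3e: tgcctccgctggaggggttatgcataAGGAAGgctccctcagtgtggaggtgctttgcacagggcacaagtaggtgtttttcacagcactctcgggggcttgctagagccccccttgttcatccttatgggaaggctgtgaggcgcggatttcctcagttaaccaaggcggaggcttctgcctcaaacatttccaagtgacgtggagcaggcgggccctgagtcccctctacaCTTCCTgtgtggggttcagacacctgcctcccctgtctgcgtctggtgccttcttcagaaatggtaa

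The Cd3d window held 2 ETS matches, 198 and 5 bases before the start, and the Cd3e window held 2, at 224 and 17 bases before it, while the Cd3g window held none. No window held the RUNX core. The E-box letters CANNTG occurred at 4 positions in the Cd3g, 1 in the Cd3d and 2 in the Cd3e window, and the letters AGATAA, which GATA factors bind, once in the Cd3g window only. No match of one motif overlapped another. Among 32851 promoter windows of the same length in the table, 35.4% held the ETS core, 16.8% the RUNX core, 72.3% an E-box and 11.2% the GATA core on either strand. Promoters were matched for 24 of the 32 genes, giving 32 windows because some genes have several starts, and 19 of these held the ETS core, 7 the RUNX core, 28 an E-box and 5 the GATA core. These are matches of letters, not sites of binding. Apart from the E-box, which all 3 windows hold, Cd3g and Cd3d shared none of the letters searched.

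The co-receptors CD4 and CD8 bring Lck to the receptor. Since Cd4, Cd8a and Cd8b1 chose the gates, their levels within them are given without weight. Cd8a had 288 CPM in knock-in and 193 CPM in wild-type naive CD8 cells (0.58, 0.33 to 0.83) and 222 and 156 CPM in memory CD8 cells (0.51, 0.19 to 0.82). Cd8b1 had 686 and 504 CPM in naive (0.45, 0.29 to 0.60) but 444 and 440 CPM in memory CD8 cells (0.01, -0.19 to 0.21), and Cd4 had 492 and 376 CPM in conventional (0.39, -0.02 to 0.78) and 431 and 372 CPM in regulatory-like cells (0.21, -0.12 to 0.55).

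Over all T-like cells, where no gate had used them, the CD8 chains were higher in the knock-in library and Cd4 was not. Cd8a had 110 CPM (560 UMIs) in knock-in and 55.2 CPM (374 UMIs) in wild-type T-like cells (1.00, 0.81 to 1.19), and Cd8b1 had 246 and 149 CPM (0.72, 0.60 to 0.84). Cd4 had 46.3 CPM (235 UMIs) and 49.0 CPM (332 UMIs) (-0.08, -0.33 to 0.16). The T-like clusters, drawn without the co-receptors, differed in this. In cluster 3 Cd8a had 79.0 and 28.4 CPM (1.47, 1.05 to 1.90), in cluster 6 it had 232 and 132 CPM, and in cluster 7, which holds most memory CD8 cells, it had 118 and 92.8 CPM. Cd4 was lower in the knock-in library in cluster 6, at 24.0 and 45.0 CPM (-0.91, -1.64 to -0.21), and nearly level in cluster 8, at 141 and 138 CPM. A cluster can hold CD4 and CD8 cells in different proportions, and the part of such proportions in these levels cannot be told apart from RNA per cell.

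**Figure D3:**
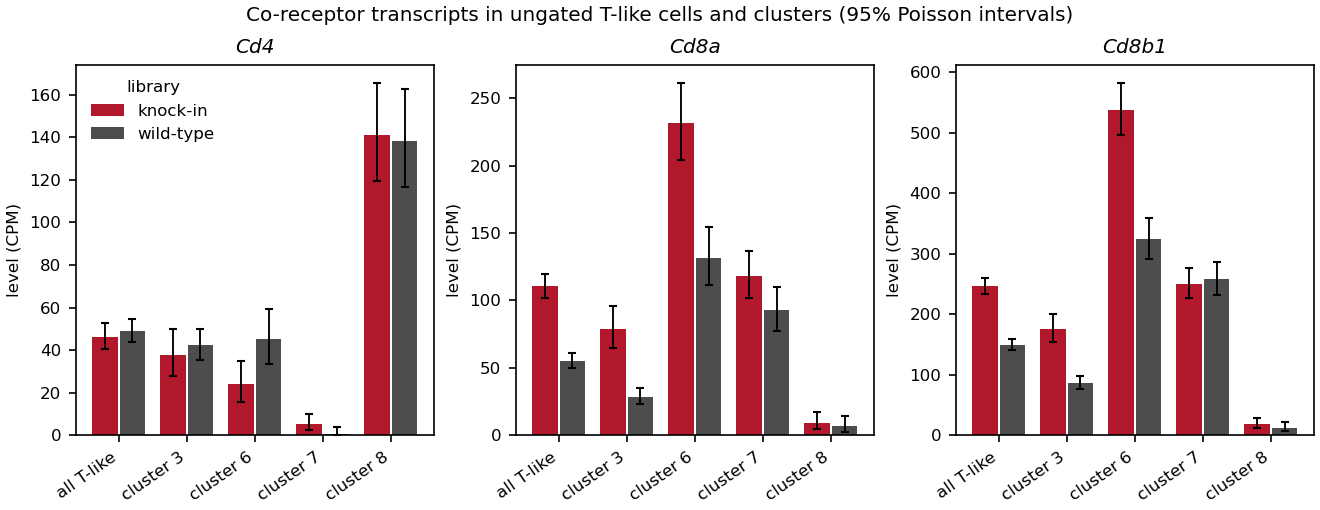
Co-receptor levels in CPM (y axis, from 0) in all T-like cells and the 4 T-like clusters (x axis), knock-in bars left of wild-type bars, with 95% Poisson intervals of 1 library each. Cd8a and Cd8b1 are both higher in knock-in bars for all T-like cells and clusters 3 and 6, while Cd4 is lower in cluster 6 and level in cluster 8. Cd8a is also higher in cluster 7 and Cd8b1 in cluster 8.

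Among the kinases, Lck, which starts the cascade, was higher in knock-in CD8 cells. It had 235 CPM (275 UMIs) in knock-in and 152 CPM (183 UMIs) in wild-type naive CD8 cells (0.63, 0.35 to 0.91) and 243 and 186 CPM in memory CD8 cells (0.39, 0.10 to 0.68). In gamma-delta cells 22 UMIs in the knock-in and 6 in the wild-type library gave 271 and 80.8 CPM, the largest ratio of these genes in that gate (1.75, 0.40 to 3.34). Conventional CD4 cells, at 187 and 144 CPM, had an interval that included 0 (0.38, -0.30 to 1.02), and Lck was level in regulatory-like cells, at 229 and 237 CPM, and NK cells, at 188 CPM in both libraries.

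Fyn, the other Src-family kinase of T cells, was past the fold in no gate. Its levels were 112 CPM in knock-in and 139 CPM in wild-type conventional CD4 cells, 269 and 281 CPM in regulatory-like, 97.5 and 108 CPM in naive CD8, 122 and 145 CPM in memory CD8 and 227 and 257 CPM in NK cells. All 5 ratios were negative, between -0.32 and -0.06, and all intervals included 0. Zap70, which binds the phosphorylated zeta chain, had 80.9 CPM (13 UMIs) and 45.0 CPM (20 UMIs) in conventional CD4 cells (0.85, -0.28 to 1.93), and its other 4 ratios lay between -0.15 and 0.17.

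Txk, a Tec-family kinase, was highest in NK cells in both libraries, at 591 CPM in knock-in and 713 CPM in wild-type cells (-0.27, -0.46 to -0.08). It was also slightly lower in knock-in naive CD8 cells, at 204 and 249 CPM (-0.29, -0.54 to -0.04), and in memory CD8 cells, at 283 and 341 CPM (-0.27, -0.51 to -0.03), differences smaller than the fold used here. Conventional CD4 cells, at 255 and 175 CPM, and gamma-delta cells, at 271 and 135 CPM, had ratios of the other sign, 0.54 (-0.04 to 1.10) and 1.01 (-0.13 to 2.25). Prkcq, the protein kinase C isoform that leads to NF-kB, had 67.6 and 48.2 CPM in naive CD8 cells (0.49, -0.02 to 1.00), 80.9 and 45.0 CPM in conventional CD4 cells (0.85, -0.28 to 1.93) and 55.0 and 44.0 CPM in regulatory-like cells (0.32, -0.69 to 1.34). In NK cells it was lower, with 9 UMIs in the knock-in and 41 in the wild-type library, or 15.8 and 44.3 CPM (-1.49, -2.71 to -0.42). None of the positive Prkcq ratios had an interval that left out 0.

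Adaptors, which assemble the signalling complex under the receptor, had a higher sum in knock-in CD8 cells. In naive CD8 cells this sum was below the fold, with 2 of 7 adaptors higher and 1 lower, against 24.0% and 22.3% of all genes. Against 22.4% of all genes higher and 25.2% lower in memory CD8 cells, 3 of 6 measured adaptors were higher and 0 lower. Their summed log2 ratios were 0.27 (0.02 to 0.53) in conventional CD4 (close to 0 once the TMM shift of -0.25 is applied), 0.10 (-0.09 to 0.28) in regulatory-like, 0.27 (0.15 to 0.39) in naive CD8 0.39 (0.24 to 0.53) in memory CD8, 0.43 (-0.09 to 0.96) in gamma-delta and 0.20 (-0.04 to 0.44) in NK cells. Lat, the membrane scaffold that Zap70 phosphorylates, had 523 CPM (84 UMIs) in knock-in and 342 CPM (152 UMIs) in wild-type conventional CD4 cells (0.61, 0.21 to 1.01; 0.36 with TMM factors, with an interval that then includes 0) and 367 and 266 CPM in memory CD8 cells (0.46, 0.22 to 0.71). It had 422 and 359 CPM in naive CD8 cells (0.23, 0.04 to 0.42), was level in regulatory-like cells at 509 and 523 CPM (-0.04, -0.34 to 0.26), and had 333 and 216 CPM in gamma-delta cells (0.63, -0.32 to 1.62).

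Skap1, an adaptor that links the receptor to integrin adhesion, had the highest ratio in naive CD8 cells after Lcp2. Its levels were 299 CPM (350 UMIs) in knock-in and 176 CPM (212 UMIs) in wild-type naive CD8 cells (0.76, 0.51 to 1.02), 286 and 188 CPM in memory CD8 cells (0.60, 0.32 to 0.88) and 220 and 141 CPM in NK cells (0.64, 0.28 to 1.01). Conventional CD4 cells had 286 and 209 CPM (0.45, -0.09 to 0.98), regulatory-like cells 295 and 279 CPM (0.08, -0.32 to 0.48) and gamma-delta cells 234 and 189 CPM (0.31, -0.76 to 1.42). The ratio was positive in all 6 gates, except that in regulatory-like cells it was -0.68 once cells had been thinned to a common depth and gated again, and -0.02 with each cell weighted equally.

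Lcp2, which codes for SLP-76, pointed in opposite directions in 2 gates. It had 54.8 CPM (64 UMIs) in knock-in and 30.8 CPM (37 UMIs) in wild-type naive CD8 cells (0.83, 0.23 to 1.46), but 38.7 CPM (22 UMIs) and 67.1 CPM (62 UMIs) in NK cells (-0.79, -1.57 to -0.07). In conventional CD4 and regulatory-like cells it had 62.2 and 49.5 CPM (0.33, -0.91 to 1.47) and 98.4 and 73.4 CPM (0.42, -0.33 to 1.18), and memory CD8 cells were nearly level. Grap2, which codes for the GADS adaptor that joins Lat to SLP-76, was the adaptor with the most negative ratios. It had 143 and 216 CPM in conventional CD4 cells (-0.59, -1.32 to 0.08), 104 and 154 CPM in regulatory-like cells (-0.56, -1.20 to 0.05) and 98.6 and 189 CPM in gamma-delta cells (-0.94, -2.40 to 0.42). No Grap2 interval within a gate left out 0, and in NK cells it had 33.4 and 23.8 CPM (0.49, -0.48 to 1.44). Over all T-like cells, with 117 and 160 CPM, its ratio was -0.45 (-0.60 to -0.30).

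Themis, a T-lineage protein that tunes receptor signals during thymic selection, had 69.4 CPM (24 UMIs) in knock-in and 34.2 CPM (14 UMIs) in wild-type regulatory-like cells (1.02, 0.01 to 2.08) and 64.8 and 39.9 CPM in memory CD8 cells (0.70, 0.09 to 1.33). In NK cells it had no UMI in either library. Sh2d1a, which codes for the SAP adaptor of SLAM-family receptors, had 234 and 159 CPM in regulatory-like cells (0.56, 0.07 to 1.05), a ratio that was 0.05 with doublets kept and 0.02 with only cells of at least 1000 UMIs and 500 genes. Trat1, a transmembrane adaptor, was sparse. It gave 6 UMIs in knock-in and 19 in wild-type naive CD8 cells, or 5.13 and 15.8 CPM (-1.62, -3.24 to -0.24), the lowest ratio of these genes in that gate.

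Effector enzymes were captured at low levels. Rasgrp1, which activates Ras, had 74.4 CPM (87 UMIs) in knock-in and 44.1 CPM (53 UMIs) in wild-type naive CD8 cells (0.76, 0.25 to 1.28) and 67.9 and 43.2 CPM in memory CD8 cells (0.65, 0.06 to 1.26). It had 99.6 and 49.5 CPM in conventional CD4 cells (1.01, -0.02 to 2.00), and was level in regulatory-like cells at 63.7 and 63.6 CPM. When cells were thinned to a common depth and gated again, the naive CD8 ratio was -0.36. Plcg1, the phospholipase that starts the calcium signal, leaned the other way, with 18.7 CPM (3 UMIs) and 42.7 CPM (19 UMIs) in conventional CD4 cells (-1.19, -3.59 to 0.57), 49.2 and 68.5 CPM in regulatory-like cells (-0.48, -1.44 to 0.44) and 21.3 and 27.7 CPM in memory CD8 cells (-0.38, -1.29 to 0.52). No Plcg1 interval left out 0. Vav1, an exchange factor for Rac, and Nfatc2, a calcium-driven transcription factor, were measured in 3 and 2 gates, each with intervals that included 0.

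The phosphatases and inhibitors were lower as a sum in knock-in regulatory-like, naive CD8 and NK cells, with intervals that left out 0. This sum is not one of inhibitors alone, since it includes Ptprc, whose product CD45 sets how active Lck is. Each of these sums was smaller than the fold. Against 29.1% of all genes higher and 23.1% lower in regulatory-like cells, 1 of 3 measured was higher and 1 lower. In naive CD8 cells, where the shares of all genes were 24.0% and 22.3%, 0 of 3 were higher and 1 lower. In NK cells, with shares of 20% and 30.1%, 0 of 3 phosphatases and inhibitors were higher and 1 lower. Their summed log2 ratios were 0.07 (-0.22 to 0.34) in conventional CD4, -0.26 (-0.45 to -0.08) in regulatory-like, -0.16 (-0.28 to -0.05) in naive CD8, -0.10 (-0.22 to 0.03) in memory CD8, -0.06 (-0.51 to 0.39) in gamma-delta and -0.29 (-0.40 to -0.17) in NK cells. Those of the CD3 chains were 0.26 (0.05 to 0.46), 0.51 (0.39 to 0.64), 0.43 (0.34 to 0.52), 0.20 (0.10 to 0.31), -0.14 (-0.46 to 0.18) and 0.95 (0.61 to 1.28). The intervals of both sums stood apart in regulatory-like, naive CD8, memory CD8 and NK cells. TMM factors would turn the sum of phosphatases and inhibitors in conventional CD4 cells negative and, with a shift of 0.09, that in gamma-delta cells positive.

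Ptprc, which codes for CD45, made up most of that sum. It had 1146 CPM in knock-in and 1429 CPM in wild-type NK cells (-0.32, -0.46 to -0.18), the gate with its highest level in both libraries, and 767 and 932 CPM in regulatory-like cells (-0.28, -0.51 to -0.05). It was level in conventional CD4 cells at 604 and 600 CPM, and had 664 and 723 CPM in naive and 705 and 760 CPM in memory CD8 cells. Ptpn22, a phosphatase that acts on Lck and Zap70, had 356 and 445 CPM in regulatory-like cells (-0.32, -0.66 to 0.02) and ratios between -0.49 and 0.15 in the other gates. Ubash3a, a suppressor of receptor signals, had 35.1 CPM (41 UMIs) and 63.2 CPM (76 UMIs) in naive CD8 cells (-0.85, -1.43 to -0.28). In the other 3 alpha-beta gates its ratios lay between -0.05 and 0.58 with intervals that included 0. Sla2, an adaptor that lowers receptor levels, was measured only in NK cells, at 26.4 and 46.5 CPM (-0.82, -1.77 to 0.06).

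Of the co-stimulatory and surface genes, Cd2, a receptor for the adhesion molecule CD48 in mice, had positive ratios in all 6 gates with intervals that left out 0. They were past the fold in all gates but naive CD8. It had 585 CPM in knock-in and 432 CPM in wild-type conventional CD4 cells (0.44, 0.07 to 0.80), 888 and 597 CPM in regulatory-like cells (0.57, 0.33 to 0.82) and 322 and 275 CPM in naive CD8 cells (0.23, 0.01 to 0.44). Memory CD8 cells had 389 and 309 CPM (0.33, 0.11 to 0.56), gamma-delta cells 456 and 202 CPM from 37 and 15 UMIs (1.17, 0.27 to 2.15) and NK cells 397 and 314 CPM (0.34, 0.08 to 0.60). In conventional CD4 cells this ratio was 0.19 with TMM factors, and -0.00081 with cells thinned to a common depth and gated again. B-like cells, in which Cd2 is also expressed, had 520 and 402 CPM (0.37, 0.32 to 0.42), so the difference was not confined to T cells and NK cells.

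Cd28, the main co-stimulatory receptor, had 629 CPM in knock-in and 432 CPM in wild-type conventional CD4 cells (0.54, 0.18 to 0.90; 0.29 with TMM factors, below the fold and with an interval that then includes 0) and 335 and 275 CPM in naive CD8 cells (0.29, 0.07 to 0.50), and its ratio was positive in all 6 gates. Cd5, a surface regulator whose level follows receptor signalling, had 205 CPM (33 UMIs) and 94.4 CPM (42 UMIs) in conventional CD4 cells (1.12, 0.42 to 1.81), the highest ratio of these genes in that gate. It had 220 and 169 CPM in regulatory-like cells (0.38, -0.11 to 0.87) and 76.1 and 54.9 CPM in naive CD8 cells (0.47, -0.00 to 0.95), and was level in memory CD8 cells at 98.3 and 93.0 CPM. Requiring at least 2 co-receptor UMIs turned the regulatory-like ratio to -0.12. Cd6, a relative of Cd5, was past the fold in no gate, with ratios between 0.02 and 0.31. Thy1, a surface glycoprotein of T cells, had 131 and 96.7 CPM in conventional CD4 (0.43, -0.39 to 1.22), 107 and 142 CPM in regulatory-like (-0.41, -1.04 to 0.21), 173 and 121 CPM in gamma-delta (0.51, -0.80 to 1.90) and 65.0 and 45.4 CPM in NK cells (0.52, -0.16 to 1.19).

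**Figure D4:**
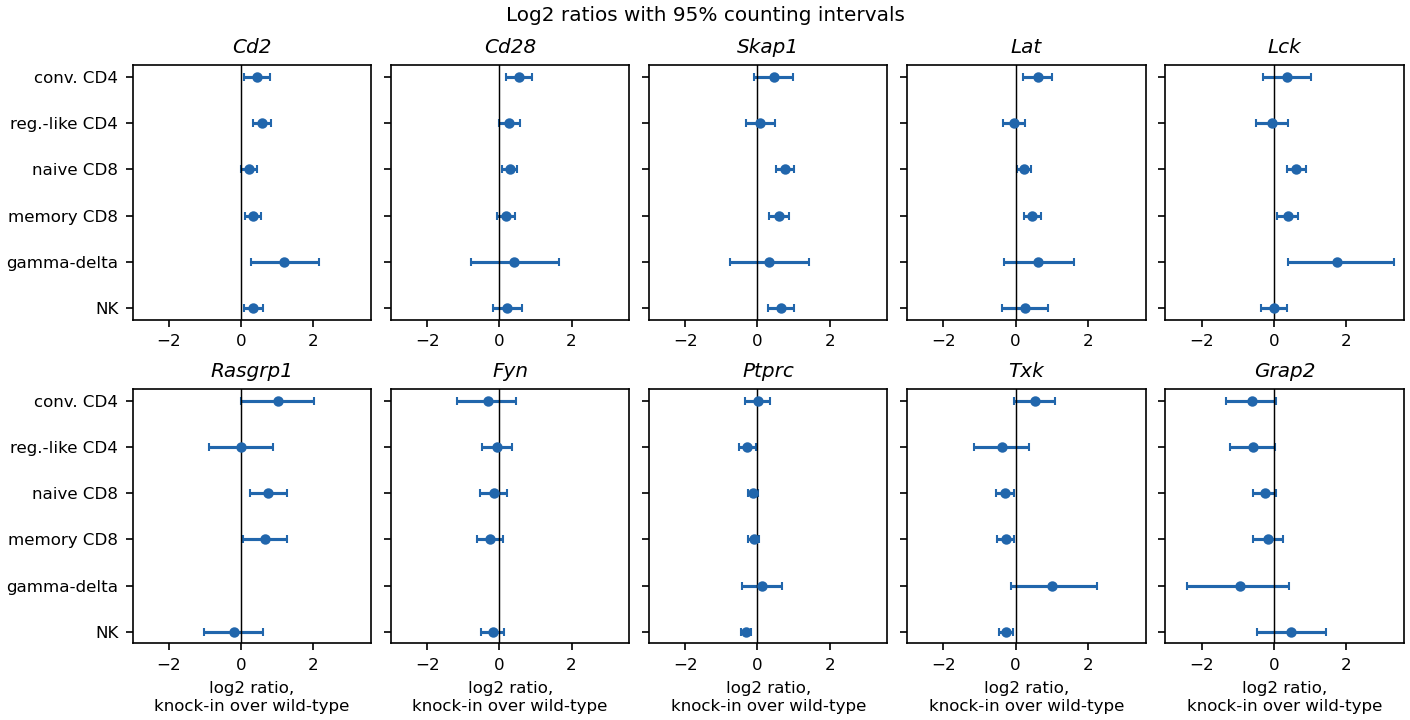
Points give the log2 ratio, knock-in over wild-type (x axis), and bars its 95% counting interval, for 10 genes in the 6 gates (y axis). A gate without a point had too few UMIs. Cd2 and Cd28 lie right of 0 in all gates, Skap1 does so with the clearest separation in naive CD8 cells, and Grap2 lies left of 0 in all gates but NK.

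In NK cells Cd3d and Cd3g were low but had larger ratios than in the other 5 gates, while Cd247 lay below 0. Cd3d had 121 CPM (69 UMIs) in knock-in and 37.9 CPM (35 UMIs) in wild-type NK cells (1.68, 1.07 to 2.31), and Cd3g had 105 CPM (60 UMIs) and 37.9 CPM (35 UMIs) (1.48, 0.85 to 2.12). Cd3e gave 3 and 2 UMIs, too few to measure. A Cd3d UMI was found in 10.7% of knock-in and 6.40% of wild-type NK cells, against 1.15% and 1.64% of B-like cells. The median depths were 2081 and 2229 UMIs in NK cells and 1806 and 2338 in B-like cells. Thinned to 1000 UMIs, the shares in NK cells were 6.49% and 2.43%, and in B-like cells 0.360% and 0.409%.

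The cells with a Cd3d or Cd3g UMI were 36 of 243 knock-in and 40 of 375 wild-type NK cells (14.8% and 10.7%). All of them held NK markers, with medians of 13.5 and 17.5 such UMIs against 20 and 23 in the other NK cells, and 88.9% and 85.0% of them held a T cell receptor beta constant UMI against 74.9% and 69.3% of the others. The list of 9 B cell markers also differed in this gate, at 668 CPM in knock-in and 231 CPM in wild-type cells, with all 6 measured markers higher. Leaving out cells with a Cd79a, Cd79b or Ms4a1 UMI, 9.88% of knock-in and 5.33% of wild-type NK cells, brought the Cd3d ratio to 0.93 and that of Cd3g to 1.31. The list of 9 T cell markers, with Trac at 0 by the gate, had 2009 and 1726 CPM. The part of these markers in the remaining ratios was not tested.

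Across the T-like clusters, which do not depend on catching a co-receptor transcript, several genes kept 1 sign. Cd3d (0.31 to 0.56), Cd3g (0.22 to 0.80), Cd2 (0.23 to 0.69), Lck (0.29 to 0.64), Lat (0.20 to 0.44) and Skap1 (0.19 to 0.51) had positive log2 ratios in all 4 clusters. Cd3e (-0.34 to -0.02), Grap2 (-0.79 to -0.18) and Ptprc (-0.21 to -0.05) had negative ones. Excluding the co-receptors, 11 of 28 measured genes were higher and 2 lower in cluster 3, against 24.8% and 20% of all genes, and 10 of 28 and 2 in cluster 6, against 28.4% and 17.3%. Cluster 7 had 7 of 29 higher and 2 lower, against 18.0% and 23.2%, and cluster 8, which holds most regulatory-like cells, 5 of 28 higher and 6 lower, against 22.2% and 24.7%. In clusters 6, 7 and 8 the share of higher genes thus lay within about 10 percentage points of that of all genes.

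The ungated T-like cells, 1015 in the knock-in and 1197 in the wild-type library, had Cd3g, Cd3d, Lat and Lck higher and Grap2 lower in the knock-in library. Cd3g had 764 CPM in knock-in and 455 CPM in wild-type cells (0.75, 0.65 to 0.84), Cd3d had 796 and 565 CPM (0.50, 0.40 to 0.59) and Cd3e had 420 and 406 CPM (0.05, -0.07 to 0.17). Lat had 501 and 350 CPM (0.51, 0.40 to 0.63), Lck 240 and 166 CPM (0.54, 0.37 to 0.70) and Grap2 117 and 165 CPM (-0.50, -0.71 to -0.29). The Cd3g ratio lay above those of the 4 alpha-beta gates, and Lck and Lat differed here but were level in regulatory-like cells. Of 29 measured genes 11 were higher and 3 lower, against 26.3% and 13.1% of all genes. Other markers moved in these cells too. The list of 6 erythroid genes had 6.43 CPM in knock-in and 175 CPM in wild-type ungated cells, with all 4 measured genes lower (median -5.06), and 13.3 and 560 CPM in cluster 6. Over all T-like cells it had 8.48 and 98.1 CPM. In ungated cells 6 of 8 activated-state genes were higher (median 0.85), and Ccl5 had 4216 and 1580 CPM. The myeloid list, with 1 of its 13 genes measured there, had 225 and 106 CPM. The part of these markers in the ungated, cluster and T-like ratios was not tested.

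The ratios ran with the length of the transcript. Over all T-like cells, Spearman's rho between the log2 ratio and the longest annotated transcript was -0.59 across 29 of the genes and -0.41 across 6751 tested genes, a description of genes that share both libraries. Of the 10 genes with transcripts of 1153 to 2746 bases, 7 were higher and 0 lower in the knock-in library with a median of 0.43, where 19.3% of all genes were higher and 13.7% lower in T-like cells. Of the 8 with 2757 to 3970 bases, 4 were higher and 0 lower (median 0.30), and of the 11 with 4347 to 7635 bases 2 were higher and 2 lower (median -0.10). Cd2, with 1153 bases, and Cd3d, with 1617, stand at the short end, and Grap2, with 5475, and Ubash3a, with 7635, at the long end. B-like cells showed the relation too, with a rho of -0.54 across 6834 genes. Adjusting the ratios for length gave medians of 0.36 in conventional CD4, 0.16 in regulatory-like, 0.10 in naive CD8, 0.09 in memory CD8, 0.29 in gamma-delta and -0.08 in NK cells.

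**Figure D5:**
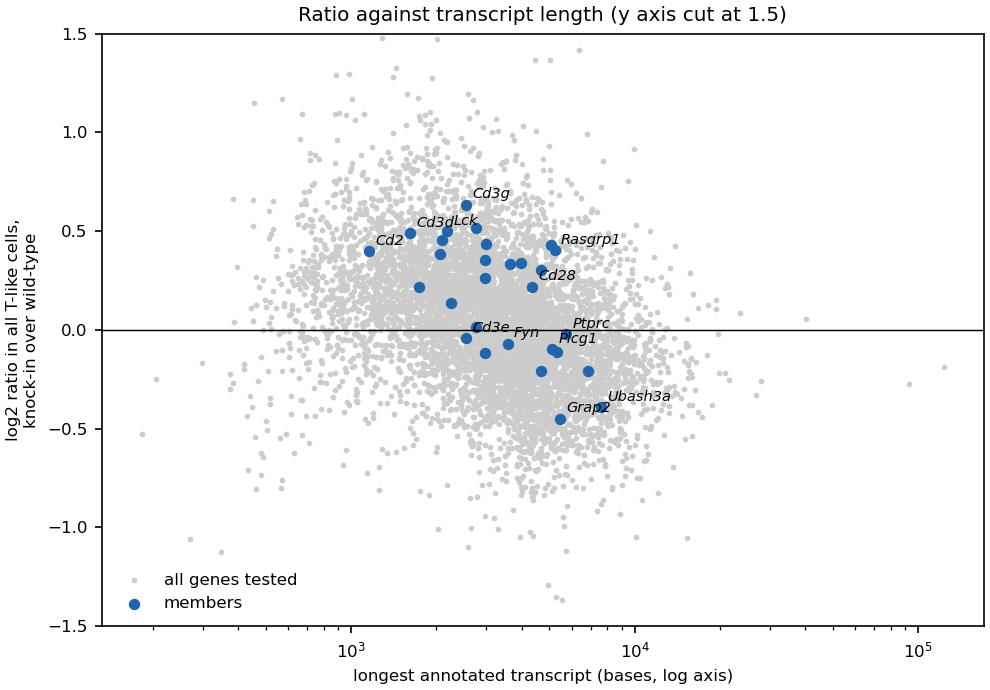
Each point is a gene in all T-like cells, with the longest annotated transcript in bases (x axis, log scale) and the log2 ratio of knock-in over wild-type (y axis, shown up to 1.5 in size). Blue points are 29 of the receptor signalling genes, some of them named, and grey points all tested genes. The blue points run downward from Cd2 and Cd3d at the short end to Grap2 and Ubash3a at the long end, along the grey cloud.

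Malat1, a nuclear RNA whose share is read as a sign of RNA quality, was lower in the knock-in library in every gate. It had 20619 CPM in knock-in and 24741 CPM in wild-type conventional CD4 cells, 18342 and 27435 CPM in regulatory-like, 14110 and 20757 CPM in naive CD8, 10626 and 16981 CPM in memory CD8, 12253 and 26375 CPM in gamma-delta and 18075 and 29437 CPM in NK cells. B-like cells showed the same order, at 19941 and 30853 CPM. The part of Malat1, of transcript length and of depth in the ratios above was not tested.

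The conventional CD4 gate differed between the libraries in what else it held. The list of 9 B cell markers had 828 CPM in knock-in and 301 CPM in wild-type cells with all 4 measured markers higher, and Ccl5 was found in 11.6% and 1.39% of the cells. Of 8 genes of the naive state all were measured and 4 were lower, with a median log2 ratio of -0.34, and of 8 genes of the activated state 4 were measured and 3 higher, with a median of 0.93. Of 71 interferon-induced genes 31 were measured and 20 were higher, with a median of 0.62. Of all genes in this gate 34.9% were higher and 24.0% lower. With TMM factors, which move each ratio by -0.25, these shares were 21.5% and 38.5%. The knock-in cells came from clusters 3, 6, 7 and 8 in numbers of 32, 19, 4 and 14, and the wild-type cells in numbers of 100, 33, 1 and 10. Leaving out cells with a B cell marker UMI, 5.80% of knock-in and 7.64% of wild-type cells, brought the median of the receptor signalling genes to 0.57. Whether the state of the cells plays a part in their ratios was not tested.

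In the other gates these lists differed in size and direction. The B cell markers had 683 CPM in knock-in and 465 CPM in wild-type regulatory-like cells, 355 and 336 CPM in naive CD8, 219 and 352 CPM in memory CD8 and 468 and 216 CPM in gamma-delta cells. Regulatory-like cells had 4 of 8 naive-state genes lower (median -0.40) and 4 of 7 measured activated-state genes higher (median 0.48), with a median of -0.09 over 40 interferon-induced genes. Naive CD8 cells had 34 of 52 measured interferon-induced genes higher (median 0.47) and memory CD8 cells 27 of 48 (median 0.39), with naive-state medians of 0.10 and 0.07. Of all genes, 29.1% were higher and 23.1% lower in regulatory-like cells. The shares of all genes that were higher were 24.0% in naive CD8 and 22.4% in memory CD8 cells. The myeloid list of 13 genes had no measured member in the CD4 gates, 1 in each CD8 gate, and a sum of 3 UMIs in knock-in and 4 in wild-type conventional CD4 cells and of 8 and 3 in regulatory-like cells. Its summed level was 210 CPM in knock-in and 126 CPM in wild-type naive CD8 and 661 and 556 CPM in memory CD8 cells. In memory CD8 cells the log2 ratio of the 1 measured gene, 0.28, equalled the median of the activated-state list to every digit computed. Both lists may thus hold this gene. If so, the memory CD8 sum is not one of myeloid genes alone. The part of myeloid RNA in these sums was not tested. Of the myeloid list, C1qb, Retnlg, Csf3r, Cd209a and Siglech were at 0 in both libraries in all 4 alpha-beta gates. Its other macrophage genes C1qa and C1qc held UMIs in both CD8 gates, and its neutrophil gene S100a9 held UMIs in all 4, in at least 1 library.

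The counts of a list of 68 other genes of T cell receptor signalling lay near what the shares of all genes give in conventional CD4 and naive CD8 cells. Of 50 measured in conventional CD4 cells, 18 were higher and 14 lower (median 0.07), against 34.9% and 24.0% of all genes. Of 59 in regulatory-like cells 15 and 14 were (0.02), against 29.1% and 23.1%, of 66 in naive CD8 cells 14 and 14 (-0.06), against 24.0% and 22.3%, and of 65 in memory CD8 cells 12 and 20 (-0.13), against 22.4% and 25.2%. In NK cells 5 of 64 were higher and 19 lower (-0.04), against 20% and 30.1%, and of the 8 measured in gamma-delta cells 2 and 5, against 30.8% and 31.3%.

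Among them, Dusp2, a phosphatase of MAP kinases induced by activation, had 65 UMIs in knock-in and 84 in wild-type conventional CD4 cells (1.10, 0.61 to 1.58), and Fermt3, which codes for the integrin activator kindlin-3, had 16 and 13 (1.77, 0.62 to 2.94). Rasal3, a Ras GTPase-activating protein, had 10 and 12 UMIs there (1.21, -0.16 to 2.54) and 18 and 5 in regulatory-like cells (2.09, 0.61 to 3.88), and Arhgef6 had 2 and 22 in conventional CD4 cells (-1.99, -5.12 to 0.03). In regulatory-like cells Ppp3ca, a catalytic chain of the NFAT-activating phosphatase calcineurin, had 6 and 22 UMIs (-1.63, -3.22 to -0.29), Pdpk1 had 6 and 17 (-1.26, -2.89 to 0.15) and Ptpn11, the phosphatase SHP-2, had 43 and 26 (0.97, 0.23 to 1.73).

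In naive CD8 cells, the inhibitory phosphatase SHP-1 gene Ptpn6 had 66 UMIs in knock-in and 35 in wild-type cells (0.96, 0.34 to 1.59), and another calcineurin chain gene, Ppp3cc, had 30 and 16 (0.95, 0.03 to 1.92). Nfkb1, an NF-kB subunit, was lower with 129 and 215 UMIs (-0.70, -1.02 to -0.37). Memory CD8 cells had 35 and 57 UMIs of Cbl, a ubiquitin ligase that limits the receptor signal (-0.83, -1.48 to -0.20), while the intervals of Mapk3 (-1.04), Akt1 (0.81) and Chuk (0.76) included 0.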

How the data were processed

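The matrices are raw counts of UMIs for each gene and barcode, deposited unnormalized. Per the file headers the counts come from Cell Ranger 6.1.2. The submitters' processing notes give another version, 7.1.0, beside Seurat 5.0.3 and the build mm10. By default these versions differ in whether intronic reads are counted, so it is open whether the counts, and the relation to transcript length, include them. Which annotation was used and how barcodes were picked is not given in the sources used here. Per the labels' protocols, spleens were broken up mechanically and red cells lysed, and the titles name 1 mouse for each library.

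Barcodes with fewer than 500 UMIs or 200 genes (21 knock-in, 48 wild-type) and barcodes with 10% or more of mitochondrial UMIs (396 knock-in, 668 wild-type) were dropped. Scrublet (scanpy 1.11.5, expected rate 0.08) placed its own threshold so that it marked 1 knock-in cell, and a common score limit of 0.4, chosen after this had been seen, removed 141 knock-in (1.64%) and 190 wild-type cells (1.95%). Both libraries were clustered together into 19 clusters (2000 variable genes, 30 principal components, 15 neighbours, leidenalg 0.10.2 at resolution 1). The 32 genes, antigen receptor segments and ribosomal, mitochondrial, haemoglobin, sex-linked, interferon and stress genes took no part in this. Clusters were named from marker lists at a score of at least 0.7, a limit set after the clusters had been seen, and a cluster led by cell cycle genes stayed unnamed. T-like cells were 1861 in the knock-in and 1989 in the wild-type library.

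UMIs were summed per library and gate and scaled to CPM. Levels carry exact Poisson intervals, and ratios exact conditional binomial intervals. Both treat each UMI as independent, which makes them too narrow for genes with most UMIs in few cells. TMM factors came from edgeR 4.0.16 (R 4.3.3). Gene positions and transcript lengths came from GENCODE M21 of GRCm38, matched for 99.6% of features. The computation was tested on simulated data. Named were, per gate, the 5 largest ratios with intervals that leave out 0, genes past the fold in one direction in at least 3 gates, and of the other pathway genes the 4 largest in each alpha-beta gate. Some genes are not reported here. The genes and lists were chosen with earlier results of these data known. The length adjustment and the values by cluster and in ungated cells were added after the data had been seen.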

Additional observations from a re-analysis of the deposited data

Results flagged for a closer look

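Lcp2, which codes for the adaptor SLP-76, was looked at again because its log2 ratios lay on opposite sides of 0 in 2 gates, with counting intervals that left out 0 in both. The ratio of knock-in over wild-type was 0.83 (0.23 to 1.46) in naive CD8 cells, from 64 and 37 UMIs, and -0.79 (-1.57 to -0.07) in NK cells, from 22 and 62 UMIs. The difference between the gates was not tested, since each holds 1 library per genotype.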

How the results depend on the processing

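No paired analysis was possible because each genotype has 1 library, and no replicate could be left out. Some alternatives could not move a ratio. The fold of 0.5 adds none, and the settings with no filter or at least 100 summed UMIs only change which genes count. Requiring 2 co-receptor UMIs leaves gamma-delta and NK cells as they were, and leaving out shared barcodes leaves the CD4 and gamma-delta gates unchanged. The first count below is therefore no measure of stability. Under 15 alternatives, 1113 ratios of named genes in their gates gave 1085 that moved by less than the counting interval, 21 that moved further and 7 in which a ratio past the fold changed sign. These were Plcg1 in regulatory-like cells with a mitochondrial limit of 5% (0.10), Cd5 in regulatory-like cells with at least 2 co-receptor UMIs (-0.12), and, with cells thinned to 1000 UMIs and gated again, Cd2 in conventional CD4 (-0.00081), Cd247 (-0.16), Rasgrp1 (-0.36) and Prkcq (-0.36) in naive CD8 and Thy1 in NK cells (-0.27). Medians over the genes ranged from 0.12 to 0.57 in conventional CD4, 0.07 to 0.30 in regulatory-like, 0.04 to 0.27 in naive CD8, 0.02 to 0.19 in memory CD8, 0.05 to 0.50 in gamma-delta and -0.18 to 0.08 in NK cells, where the sign was not stable; in conventional CD4 cells the lowest came with TMM factors (0.12) and the highest without cells that held a B cell marker UMI (0.57). Counts of genes past the fold moved by over 1.5 times as follows. TMM factors gave 5 higher and 5 lower of 26 in conventional CD4 cells, against 21.5% and 38.5% of all genes. A total without ribosomal protein, mitochondrial and antigen receptor genes gave 8 and 5, against 25.7% and 33.0%. With at least 100 summed UMIs, which leaves fewer genes, 7 of 12 were higher and 1 lower in conventional CD4 cells. Regulatory-like cells then had 6 and 1 of 15, gamma-delta cells 0 and 0 of 3 and NK cells 3 and 1 of 11. In the CD8 gates 1 of 24 was lower in naive and 1 of 23 in memory cells. Thinning, which leaves fewer UMIs, gave 6 and 0 of 12 in conventional CD4 and 4 and 2 of 10 in regulatory-like cells. It gave 5 and 5 of 15 in memory CD8 and 2 and 0 of 2 in gamma-delta cells. Lower genes were then 6 of 23 in naive CD8 and 7 of 19 in NK cells. With no filter, gamma-delta cells had 10 and 10 of 28, and NK cells 10 of 26 higher. A fold of 0.5 left 8 of 26 higher in conventional CD4, 6 and 1 of 25 in regulatory-like and 3 and 0 of 27 in memory CD8 cells. At least 2 co-receptor UMIs left 5 and 1 of 8 in conventional CD4 cells. Lower genes numbered 5 of 28 in naive CD8 and 2 of 14 in gamma-delta cells with a 5% mitochondrial limit. They were 1 of 12 in gamma-delta cells with at least 1000 UMIs and 500 genes, and 1 of 27 in naive CD8 cells with doublets kept. With each cell weighted equally they were 3 of 25 in regulatory-like cells. Without cells with a B cell marker UMI they were 2 of 13 in gamma-delta cells. Without the highest cell of each library they were 5 of 26 in conventional CD4 cells. Apart from the changes of scaling, shares of all genes are not given for these settings, so these counts are not a result about these genes. Except for the restricted settings named above, the cause of each move was not tested. The gamma-delta gate, with 30 knock-in and 26 wild-type cells, had 14 genes measured.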

Other observations

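B-like cells expressed 9 of the receptor signalling genes at a measured level. Fyn had 67.9 CPM in knock-in and 108 CPM in wild-type B-like cells (-0.67, -0.79 to -0.56) and Txk 13.9 and 24.7 CPM (-0.83, -1.09 to -0.58), while Lck had 18.4 and 12.6 CPM (0.55, 0.28 to 0.81). Of these 9 genes 2 were higher and 2 lower, against 13.5% and 18.2% of all genes.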
